A study of Mus musculus with 14 samples.

Results

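The 39 protein-coding Hox genes of the mouse were followed in sorted ureteric bud cells of the embryonic kidney. They were taken from the count table by name, as every protein-coding gene called Hoxa, Hoxb, Hoxc or Hoxd with a number, so no measured value chose them. They are 39 of 55487 genes, and they lie in 4 clusters. In GRCm38, with positions from the GENCODE M21 annotation, the 11 HoxA genes span chr6:52155590-52260880 on the minus strand. The 10 HoxB genes span chr11:96194316-96368256, the 9 HoxC genes chr15:102921103-103036852 and the 9 HoxD genes chr2:74668310-74765142, all on the plus strand.

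Hox genes encode homeodomain transcription factors. Within a cluster the genes stand in the order of their numbers, low numbers (3′ genes) generally being used early and towards the head and high numbers (5′ genes) later and towards the tail. Genes with the same number in different clusters are paralogues that descend from a common ancestral gene and often act redundantly. In the developing kidney the group 10 and group 11 paralogues are known for their roles in stroma and in the metanephric mesenchyme that induces the ureteric bud, while Hoxb7 marks the bud's own lineage.

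The study profiled RNA from kidney epithelium in which centrosomes or polycystin-1 were to be lost. Cep120 is a centriole protein, and Pkd1 encodes polycystin-1, which is mutated in dominant polycystic kidney disease. In the Hoxb7-Cre line, Cre recombinase is expressed under Hoxb7 control and GFP with it, and GFP-positive cells were sorted. The protocol names stage E13.5 and was attached to all samples, while the stage label says only embryonic. There were 5 libraries labelled Cep120 KO (numbers 2, 4, 5, 6 and 7), 3 controls of the same line, and 3 Pkd1 KO libraries with their own 3 controls. The KO samples are marked homozygous in their titles, and the controls heterozygous in the titles but WT in the genotype label; every group carries the sorting transgene. Strain, sex, the floxed exons and whether a library is 1 embryo, 1 litter or a pool are not in the labels; a p-value below is therefore about the variation among libraries, part or all of which may be technical.

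Total counts were 11347628 to 27967540 per library. Ureteric bud markers were detected in all 14 libraries (13 of 13 genes, 632 to 1441 TPM in sum, a level corrected for transcript length). Among libraries labelled Cep120 KO the sum was 632 TPM in library 6, 975 in library 7, and 1354 and 1441 in libraries 4 and 5. It was 847 to 1178 TPM in all others. Cep120 had more reads in the group labelled Cep120 KO than in its controls (log2 difference 0.83, SE 0.31, edgeR adjusted p = 0.0832), and Pkd1 was 0.65 lower on the log2 scale in Pkd1 KO (-0.65, SE 0.43, adjusted p = 1). Libraries 6 and 7 stood apart: 9 nephron progenitor markers summed to 803 and 623 TPM there against 34.8 to 67.9 in the other 12, and 12 stromal markers to 73.6 and 51.2 against 1.14 to 30.4. Six2, a defining progenitor gene, had 127 and 86.1 CPM (counts scaled to library size) in those libraries and at most 1.53 elsewhere. Cited1, also in that list, alone made up 62.6 of the 67.9 TPM in Cep120-line control 1. It had 99.0 and 68.6 TPM in libraries 6 and 7. In CPM it had 50.8 and 33.2 there, within or below the 55.5, 35.4 and 41.5 of the Cep120-line controls. Foxd1, a defining stromal gene, had 4.801 and 3.15 CPM against at most 0.59. Tcf21 alone made up 44.0 of the 73.6 TPM in library 6. Lum (0.048 and 0.707 TPM in libraries 6 and 7), Dcn (2.92 and 4.58 TPM) and Pdgfrb (0.986 and 1.042 TPM) were not above the highest of the other 12. Pdgfra had 0.294 and 0.642 TPM, and only library 7 was above the highest of the other 12 (0.512). In bulk samples, fewer cells of a type and less RNA per cell cannot be told apart.

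The sequences of the group 10 homeoboxes, the part of a Hox gene that encodes the DNA-binding homeodomain, are shown. These genes had high levels in some libraries and low levels in others, and their reads must be told from each other. A 180-base homeobox was found in the GENCODE M21 transcripts of all 39 genes. Capitals mark the bases that differ from Hoxa10; Hoxc10 differs at 35 positions and Hoxd10 at 38.
Hoxa10: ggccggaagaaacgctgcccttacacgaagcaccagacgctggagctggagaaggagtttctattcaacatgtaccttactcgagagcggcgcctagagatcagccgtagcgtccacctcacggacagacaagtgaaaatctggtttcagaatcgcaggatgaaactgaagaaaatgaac
Hoxc10: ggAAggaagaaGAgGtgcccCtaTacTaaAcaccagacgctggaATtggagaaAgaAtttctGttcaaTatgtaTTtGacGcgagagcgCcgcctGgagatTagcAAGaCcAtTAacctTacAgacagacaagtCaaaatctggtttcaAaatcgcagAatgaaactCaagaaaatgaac
Hoxd10: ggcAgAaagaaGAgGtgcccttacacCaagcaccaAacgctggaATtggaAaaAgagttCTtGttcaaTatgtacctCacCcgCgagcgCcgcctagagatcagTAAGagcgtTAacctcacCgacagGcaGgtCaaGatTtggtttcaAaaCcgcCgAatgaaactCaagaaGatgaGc
Over the 42 pairs of equal number, homeobox identity ran from 67.2% to 93.9%, with a median of 80.6%. Between different numbers the median was 60.6%. Over whole transcripts annotated as protein coding, the longest identical stretch was 50 bases within a number (Hoxb9 and Hoxc9). It was 52 bases between numbers (Hoxa6 and Hoxb4). With all annotated transcripts counted, neighbours can share more: Hoxd3 and Hoxd4 share 388 exonic bases on the same strand, and Hoxc5 and Hoxc10 share 166. The way reads that match several places were counted is not given in the sources used here.

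In the 6 control libraries of both lines, the ureteric bud cells used mainly HoxB and HoxD genes. A mean of at least 1 TPM was reached by 8 of 10 HoxB genes, 6 of 9 HoxD genes, 2 of 11 HoxA genes and 0 of 9 HoxC genes, 16 in all. Hoxb7 led, with 54.0, 68.8 and 77.7 TPM in the Cep120-line controls and 73.2, 69.0 and 58.6 TPM in the Pkd1-line controls, and made up 37.7% of all Hox TPM. Control elements of Hoxb7 drive the transgene by which the cells were sorted. The next were Hoxd8 at 30.0 ± 4.05 TPM (SD, n = 6), Hoxb9 at 26.3 ± 2.88, Hoxb6 at 14.5 ± 4.11, Hoxd9 at 8.72 ± 1.91, Hoxb5 at 8.19 ± 3.86 and Hoxb2 at 4.801 ± 2.05. The ranges of Hoxb7 and Hoxd8 did not meet, whereas Hoxd8 (23.6 to 34.4 TPM) and Hoxb9 (23.4 to 30.5) overlapped, as did Hoxd9 (6.16 to 11.1) and Hoxb5 (4.71 to 13.52).

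**Figure D1:**
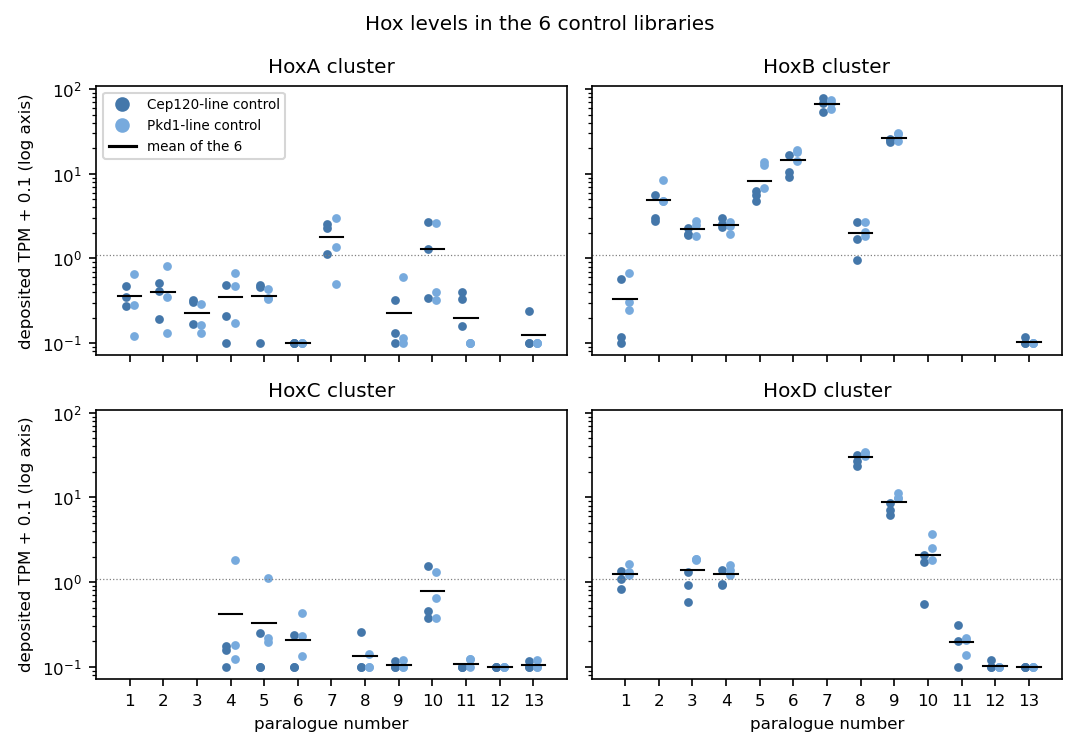
Hox levels in the 6 control libraries, by cluster and paralogue number. Each point is 1 library (deposited TPM + 0.1, log axis), dark blue for the Cep120 line and light blue for the Pkd1 line, and each black bar is the mean of the 6. The dotted line marks 1 TPM. HoxB peaks at number 7 and HoxD at number 8, while all 9 HoxC genes have means under the line.

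By paralogue number, group 7 carried 38.7% of the Hox TPM in the controls, group 9 carried 19.8% and group 8 carried 18.0%. Groups 1 to 4 together stayed low, each summing to at most 8.39 TPM in any control. Group 10 summed to 1.04 to 7.33 TPM and group 11 to 0.037 to 0.407. Groups 12 and 13 were at or near 0. Within HoxD the level was highest at Hoxd8 and lower at each next gene, Hoxd9, Hoxd10 (1.96 ± 1.03 TPM) and Hoxd11 (0.0948 ± 0.0722). In HoxA the leading gene was Hoxa7, at 2.48, 2.19 and 1.02 TPM in the Cep120-line controls and 0.399, 1.26 and 2.86 in the Pkd1-line controls. Of Hoxa7's exonic bases, 20.4% are shared with the opposite-strand gene Hoxaas3, and the kit does not mark strand, so reads there cannot be told apart. Hoxa10 followed at 1.19 ± 1.14 TPM. Hoxc10 led HoxC, with 0.352, 1.43 and 0.275 TPM in the Cep120-line controls and 0.274, 0.556 and 1.21 in the others.

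The control groups of the 2 lines were compared as a baseline. Of 29 Hox genes that passed the filter on low counts, 0 were called by edgeR's quasi-likelihood test at an adjusted p under 0.05. Of all 16876 genes tested, 0.124% were called (0.107% higher, 0.0178% lower). An unadjusted p under 0.05 was found for 0 members and for 825 of all genes. In CPM, Hoxa11 and Hoxb4 lay higher in every Cep120-line control than in every Pkd1-line control (11.5% of all genes did so), and Hoxd3 lay lower (9.99%). Hoxb4 had 6.11, 6.16 and 7.24 CPM against 4.79, 4.07 and 5.64. Hoxd3 had 2.47, 1.36 and 2.70 CPM against 3.52, 4.21 and 3.70.

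**Figure D2:**
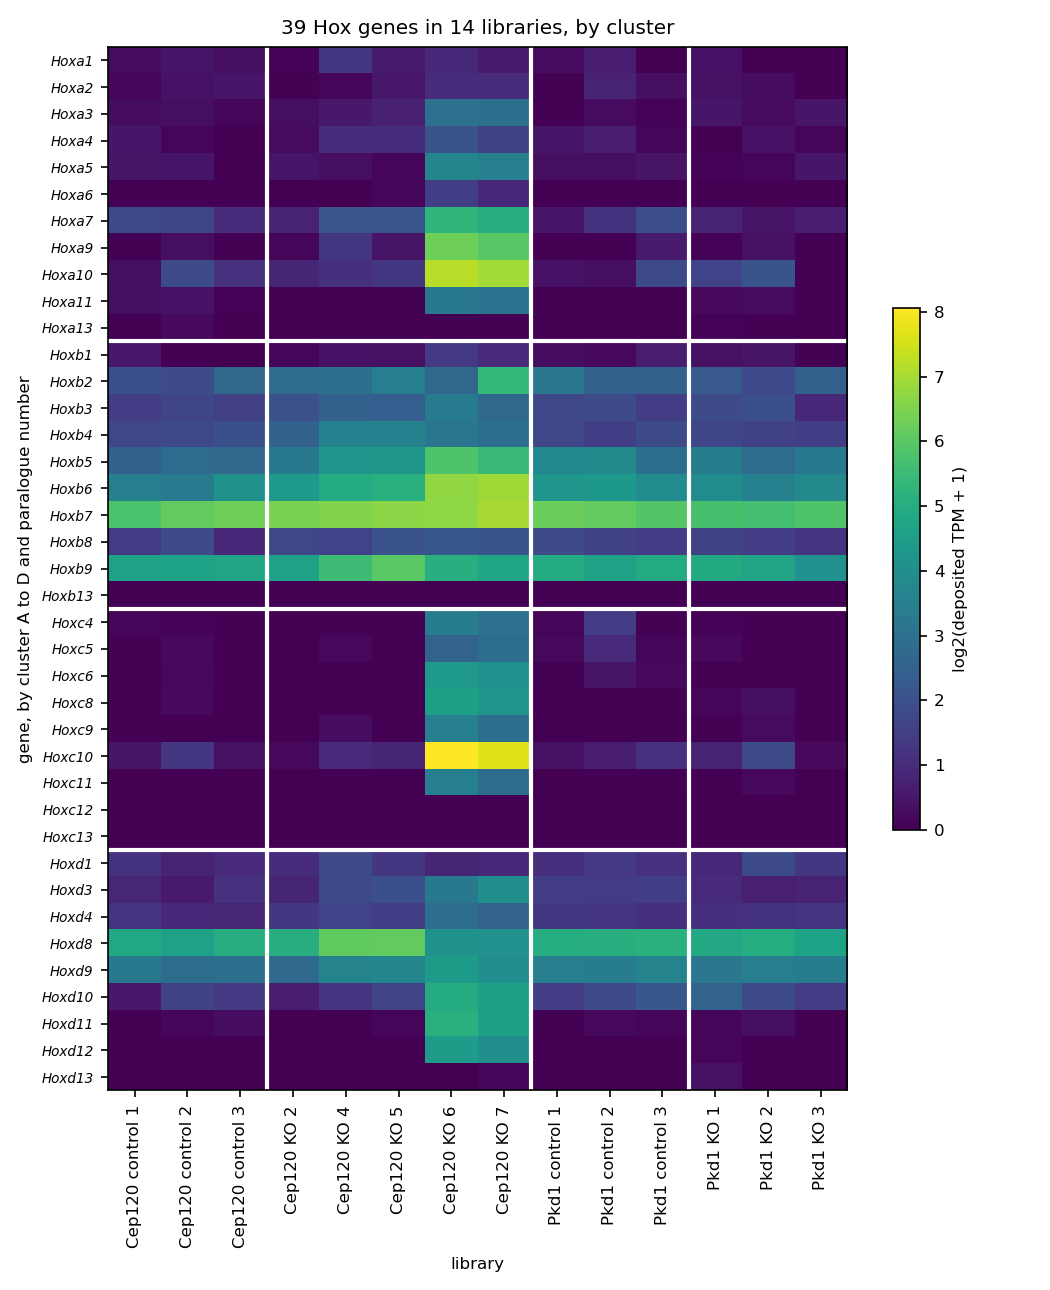
Levels of the 39 Hox genes (rows, by cluster A to D and paralogue number) in the 14 libraries (columns, by group), as log2(deposited TPM + 1). Libraries Cep120 KO 6 and 7 are brighter than the other 12 in most genes from Hoxa3 to Hoxa11, from Hoxc4 to Hoxc11 and from Hoxd10 to Hoxd12, and Hoxb13, Hoxc12 and Hoxc13 are dark everywhere.

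On the deposited TPM scale, the libraries labelled Cep120 KO had a higher total of Hox transcripts than their controls, but unevenly. All 39 genes together summed to 145, 161 and 183 TPM in the controls. They summed to 198 TPM in library 2, 307 in library 4, 343 in library 5, 1102 in library 6 and 993 in library 7. HoxA made up 296 and 243 TPM in libraries 6 and 7 and at most 9.28 in the other 12. HoxC made up 344 and 266 TPM there and at most 3.68 elsewhere. HoxB summed to 102 to 137 TPM in the Cep120-line controls and to 154, 210, 244, 325 and 371 TPM in libraries 2, 4, 5, 6 and 7. These sums carry no TMM scaling between libraries, and TMM factors were 1.15 to 1.32 in libraries 4 to 7 and 0.862 to 0.966 elsewhere. In TMM-scaled CPM, Hoxb7, the leading HoxB gene, had 99.5, 69.4, 76.3, 77.4 and 91.3 in those libraries. Its controls had 69.7, 84.4 and 93.6. The part of scaling in the TPM sums was not tested.

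The libraries labelled Cep120 KO were compared with the controls of their line. Of the 29 genes tested, 5 were higher and 0 were lower (edgeR quasi-likelihood test, Benjamini-Hochberg adjusted over all genes tested). Of all 16876 genes, 8.40% were higher and 6.26% lower, 14.7% in either direction. The 5 were 3 neighbours in HoxB (Hoxb4, Hoxb5 and Hoxb6), Hoxa9 and Hoxd3. The median log2 fold change was 1.70 over the 29 genes and 0.12 over all genes. An unadjusted p under 0.05 was found for 15 of the 29, all higher. It was found for 5680 of all 16876 genes, 3382 of them higher. The median over the members tested was 0.20 without libraries 6 and 7 (24 genes) and 0.34 with limma-voom. By cluster the median was 3.29 over 9 HoxA genes, 1.01 over 9 HoxB genes, 5.77 over 4 HoxC genes and 0.82 over 7 HoxD genes. The low-count filter used all libraries, and 24 members passed it without libraries 6 and 7. These medians therefore include genes that passed through the libraries where they were high, such as Hoxc8 with 829 and 646 reads there. In 5 genes (Hoxa3, Hoxb3, Hoxb4, Hoxb5 and Hoxb6) every library labelled Cep120 KO lay above every control, as in 6.41% of all genes. In 0 genes every such library lay below, against 8.75%. Of Hoxb3's exonic bases, 52.9% are shared with the opposite-strand gene Hoxb3os.

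Hoxb4, one of the anterior HoxB genes, was the called member with the tightest estimate. It had 6.11, 6.16 and 7.24 CPM in the controls and 11.1, 16.6, 16.3, 12.3 and 9.49 CPM in libraries 2, 4, 5, 6 and 7. The groups did not overlap, and libraries 4 and 5 were the highest. The log2 fold change was 1.01 (SE 0.24, adjusted p = 0.0299). When libraries 6 and 7 were left out, Hoxb4 was the 1 member called of 24 tested, beside 6.41% of all genes.

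Hoxb5 had 10.7, 12.4 and 11.97 CPM in the controls and 16.2, 22.9, 23.2, 72.4 and 51.1 CPM in libraries 2, 4, 5, 6 and 7. The groups did not overlap, and libraries 6 and 7 lay well above the rest. Its log2 fold change was 1.67 (SE 0.45, adjusted p = 0.0323), and 0.82 (SE 0.26, adjusted p = 0.066) without libraries 6 and 7. Hoxb6, its 5′ neighbour, had 14.8, 11.7 and 21.6 CPM in the controls against 24.3, 23.5, 26.6, 87.4 and 98.1. Here libraries 2, 4 and 5 were just above the highest control. The log2 fold change was 1.70 (SE 0.49, adjusted p = 0.0372), and 0.63 (adjusted p = 0.0795) without libraries 6 and 7.

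Hoxd3 had 2.47, 1.36 and 2.70 CPM in the controls and 1.90, 4.32, 4.97, 13.8 and 22.0 CPM in libraries 2, 4, 5, 6 and 7. Library 2 lay within the controls. Its log2 fold change of 2.12 (SE 0.65, adjusted p = 0.0441) fell to 0.79 (adjusted p = 0.216) without libraries 6 and 7. Of its exonic bases, 53.1% are shared with Gm28230, an annotated gene on the same strand that also covers Hoxd4, so its reads are uncertain. Hoxa9 had 0.117, 0.698 and 0 CPM in the controls, 0.328, 0.640 and 0.575 in libraries 2, 4 and 5, and 101 and 76.6 in libraries 6 and 7. Its log2 fold change of 6.87 (SE 2.18, adjusted p = 0.0495) was 0.84 (adjusted p = 0.741) without those libraries, whose progenitor and stromal marker sums are given above. The part of those markers in the result was not tested.

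These calls depended on single libraries. Leaving out Cep120-line control 1, 2 or 3, or library 6 or 7, left 0 of the members called, with adjusted p of up to 0.161 for these 5 genes. Of all genes tested, 0.0112% to 0.0338% were called without a control, 1.90% without library 6 and 0.0485% without library 7. Leaving out library 2 gave 13 called members beside 34.0% of all genes, library 4 gave 6 beside 9.27% and library 5 gave 4 beside 7.72%. Leaving out any 1 library of the Pkd1 line left Hoxb4 and Hoxb5, beside 7.28% to 8.05% of all genes.

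**Figure D3:**
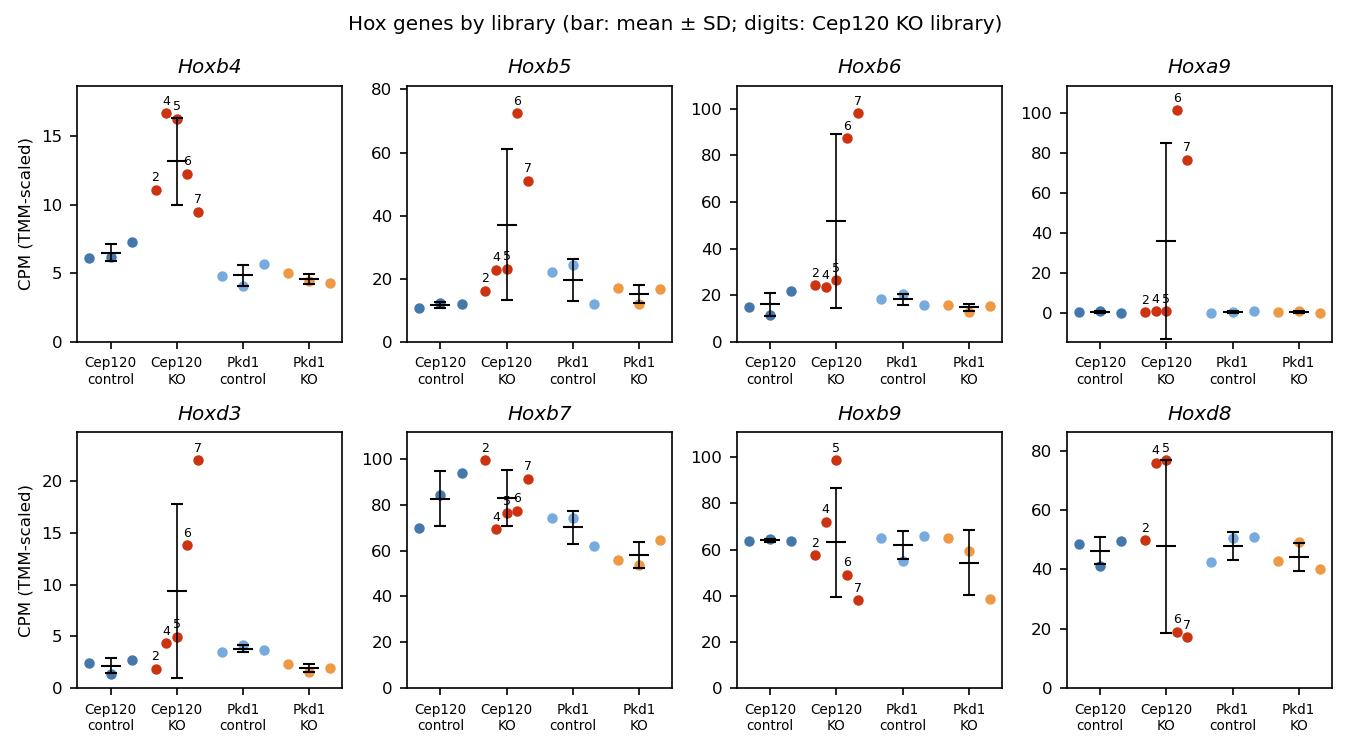
Abundance of 8 Hox genes by library (CPM scaled by the trimmed mean of M values, TMM). Points are libraries, bars are mean ± SD, and digits name the libraries labelled Cep120 KO. Hoxb4, Hoxb5 and Hoxb6 lie above their controls in all 5 of these, Hoxa9 is high in libraries 6 and 7, and Hoxd8 is high in 4 and 5 and low in 6 and 7.

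Hoxb7 itself did not pass the test. It had 69.7, 84.4 and 93.6 CPM in the controls and 99.5, 69.4, 76.3, 77.4 and 91.3 CPM in libraries 2, 4, 5, 6 and 7, and the groups overlapped. The log2 fold change was 0.00 (SE 0.16, adjusted p = 0.99). On the deposited TPM scale all 5 libraries (86.4 to 128 TPM) lay above the 3 controls, so the order differed between the scales. TMM factors were 1.15 to 1.32 in libraries 4 to 7 and 0.862 to 0.966 in the other 10. With the deposited log2 values Hoxb7 was 0.39 higher (adjusted p = 0.0931), while the all-gene median stood at 0.45 on that scale. On that scale Hoxb4, Hoxb5 and Hoxb6 were called and Hoxd3 and Hoxa9 were not (adjusted p = 0.0529 and 0.0888).

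The 4 promoters shown are those of Hoxd8, which was low in libraries 6 and 7, and of Hoxd10, Hoxd11 and Hoxd12, which were high there; all lie within the same cluster. Each is the plus-strand sequence of 250 bases before an annotated start, from RefSeq on GRCm38.p6. The windows are chr2:74704365-74704614, chr2:74691641-74691890, chr2:74682073-74682322 and chr2:74674763-74675012. Capitals mark CCAAT and TGATNNAT (letters that PBX and HOX proteins bind as a pair), each searched on both strands; no 2 matches overlap.
Hoxd8: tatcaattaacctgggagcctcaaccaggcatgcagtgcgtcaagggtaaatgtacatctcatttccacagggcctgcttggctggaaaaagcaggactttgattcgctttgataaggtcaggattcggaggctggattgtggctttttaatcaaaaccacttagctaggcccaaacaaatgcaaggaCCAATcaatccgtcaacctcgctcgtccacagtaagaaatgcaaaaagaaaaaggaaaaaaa
Hoxd10: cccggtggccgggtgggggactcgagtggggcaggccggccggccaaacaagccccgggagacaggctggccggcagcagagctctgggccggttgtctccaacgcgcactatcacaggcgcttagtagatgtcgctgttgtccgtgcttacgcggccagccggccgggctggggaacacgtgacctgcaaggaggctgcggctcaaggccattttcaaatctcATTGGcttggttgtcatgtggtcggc
Hoxd11: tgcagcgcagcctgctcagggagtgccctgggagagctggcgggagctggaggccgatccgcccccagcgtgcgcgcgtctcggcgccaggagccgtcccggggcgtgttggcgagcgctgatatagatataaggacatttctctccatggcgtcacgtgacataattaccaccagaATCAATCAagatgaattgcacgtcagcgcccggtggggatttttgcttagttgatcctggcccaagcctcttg
Hoxd12: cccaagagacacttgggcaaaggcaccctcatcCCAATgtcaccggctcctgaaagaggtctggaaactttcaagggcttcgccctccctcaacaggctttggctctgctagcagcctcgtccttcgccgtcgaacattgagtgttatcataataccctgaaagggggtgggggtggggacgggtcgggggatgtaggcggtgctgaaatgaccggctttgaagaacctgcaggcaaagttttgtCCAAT
Among 32851 promoter windows of this length 33.8% hold CCAAT and 7.68% hold TGATNNAT. Hoxd8, Hoxd10 and Hoxd12 hold CCAAT, and the Hoxd11 window shown holds TGATNNAT. A second annotated start of Hoxd11 (window chr2:74679308-74679557, not shown) has neither motif and 2 CpG dinucleotides. The windows shown hold 6, 20, 20 and 10 CpG dinucleotides in that order, against a median of 6 over all windows. Promoter entries were found for 22 of the 39 genes.

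Hoxd8, the leading HoxD gene, lay on both sides of its controls among the libraries labelled Cep120 KO. It had 48.5, 41.2 and 49.4 CPM in the controls, 49.8 in library 2, 75.9 and 76.9 in libraries 4 and 5, and 19.1 and 17.2 in libraries 6 and 7. Libraries 4 and 5 were the highest of all 14 and libraries 6 and 7 the lowest. The group means were 47.8 ± 29.2 CPM (SD, n = 5) and 46.4 ± 4.50 (SD, n = 3), and edgeR did not call the gene (log2 fold change 0.04, SE 0.41, adjusted p = 0.955). With limma-voom, which weights libraries by their quality, it was called higher (0.66, SE 0.22, adjusted p = 0.0249). Of its 3 annotated transcripts, Hoxd8-201 had 56.1 TPM in both library 4 and library 5 and 12.5 to 23.8 TPM elsewhere. Hoxd8-202 had 5.97 and 7.62 TPM in libraries 4 and 5, and 1.44 to 6.92 elsewhere. Hoxd8-203 had 5.58 and 5.73 TPM there, within its range of 1.24 to 8.49 elsewhere. Hoxb9, another leading gene of the bud, showed a like order in part, at 63.6, 64.8 and 63.9 CPM in the controls and 57.5, 72.1, 98.9, 49.2 and 38.1 CPM in libraries 2, 4, 5, 6 and 7 (log2 fold change -0.02, SE 0.26, adjusted p = 0.963).

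The paralogues of group 10, which act in kidney stroma and mesenchyme, had the largest sum of any paralogue number in libraries 6 and 7. Hoxc10 had 0.764, 2.96 and 0.552 CPM in the controls, 0.262, 1.28 and 1.03 in libraries 2, 4 and 5, and 322 and 240 in libraries 6 and 7. Its log2 fold change of 6.25 (SE 2.13) did not pass (adjusted p = 0.0611). It shares 8.70% of its exonic bases with an annotated transcript of Hoxc5. Hoxa10 had 0.294, 4.35 and 1.84 CPM in the controls, 1.25, 1.17 and 1.52 in libraries 2, 4 and 5, and 138 and 108 in libraries 6 and 7 (4.50, SE 1.84, adjusted p = 0.105). Hoxd10 had 0.940, 3.86 and 3.01 CPM, then 0.983, 1.65 and 2.59, then 34.0 and 23.8 in the same order (2.27, SE 1.03, adjusted p = 0.141). In all 3 genes libraries 2, 4 and 5 overlapped the controls. Without libraries 6 and 7 the log2 fold changes were -0.74, -0.73 and -0.57, none of which passed.

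Group 11, which patterns the metanephric mesenchyme, showed the same split. Hoxd11 had 0, 0.370 and 0.737 CPM in the controls, 0.0656, 0 and 0.164 in libraries 2, 4 and 5, and 65.9 and 41.6 in libraries 6 and 7 (log2 fold change 5.86, SE 2.15, adjusted p = 0.0763). Hoxa11 had 0.529, 0.657 and 0.123 CPM in the controls, at most 0.0533 in libraries 2, 4 and 5, and 11.6 and 10.1 in libraries 6 and 7 (3.29, SE 1.80, adjusted p = 0.222). Hoxc11 was among the 10 members that did not pass the filter. It was at 0 reads in the 3 controls and in libraries 2, 4 and 5, and had 360 and 237 reads in libraries 6 and 7. Its mean of 4.09 CPM in the libraries labelled Cep120 KO was at least 78.6-fold higher than the floor of 3 counts over the control group, a bound that covers counting error only. Of Hoxa11's exonic bases, 34.98% are shared with the opposite-strand gene Hoxa11os, and the kit does not mark strand, so their reads cannot be told apart.

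Over all 38 Hox genes with a read, libraries 6 and 7 were the highest pair of the 14 for 23 (8 HoxA, 3 HoxB, 7 HoxC and 5 HoxD genes) and the lowest pair for 2, Hoxd1 and Hoxd8. Of all genes with a read, 15.2% had them as the highest pair and 11.6% as the lowest. Hoxa7, the leading HoxA gene, had 29.7 and 23.3 CPM there and 0.422 to 3.74 in the other 12 (log2 fold change 2.39, SE 1.04, adjusted p = 0.123). Hoxd12, which did not pass the filter, had 33.8 and 24.4 CPM there and at most 0.185 elsewhere. Beyond it, Hoxd13 had 0 and 0.127 CPM in libraries 6 and 7, and Hoxa13, Hoxb13, Hoxc12 and Hoxc13 had no read there. Hoxa6, also untested, had 25 and 13 reads in libraries 6 and 7 and at most 1 elsewhere.

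**Figure D4:**
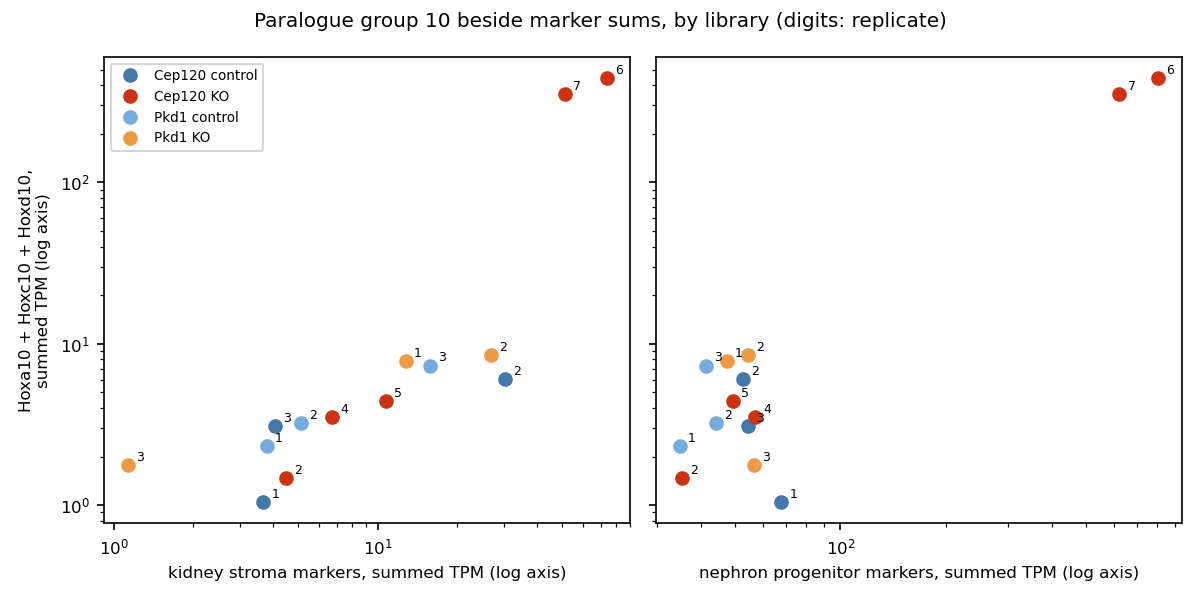
Summed TPM of Hoxa10, Hoxc10 and Hoxd10 against the summed TPM of 12 stromal markers (left) and 9 nephron progenitor markers (right), 1 point per library, both axes logarithmic, digits giving the replicate. Libraries 6 and 7 labelled Cep120 KO stand at the top of both panels, with group 10 sums of 443 and 351 TPM against 1.04 to 8.48 in the other 12.

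Group 10 also varied among the other 12 libraries. Its sum was 1.04, 6.02 and 3.09 TPM in Cep120-line controls 1, 2 and 3, where the stromal markers summed to 3.68, 30.4 and 4.08 TPM. It was 2.32, 3.21 and 7.33 TPM in the Pkd1-line controls, beside stromal sums of 3.801, 5.14 and 15.7. In Pkd1 KO 1, 2 and 3 it was 7.77, 8.48 and 1.77 TPM, beside stromal sums of 12.8, 26.8 and 1.14. In libraries 2, 4 and 5 labelled Cep120 KO it was 1.47, 3.51 and 4.44 TPM, beside 4.48, 6.72 and 10.7. The part of stromal RNA in the group 10 values was not tested.

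**Figure D5:**
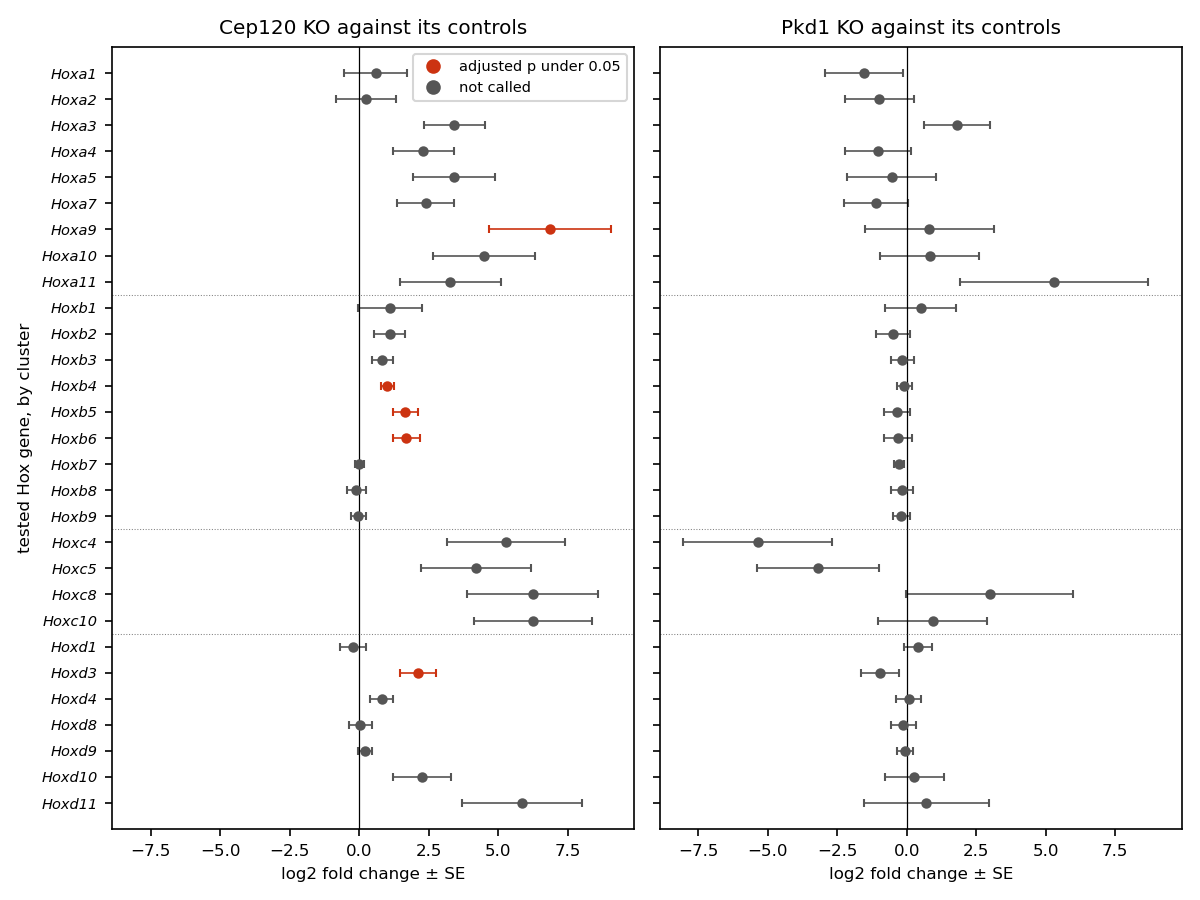
Log2 fold change ± SE of the 29 tested Hox genes, by cluster, for Cep120 KO (left) and Pkd1 KO (right) against the controls of the same line, on a common axis. Red points are called at an adjusted p under 0.05: 5 on the left and 0 on the right. HoxC and high-numbered HoxA and HoxD genes have wide SEs in both panels.

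No Hox gene passed the test in Pkd1 KO. All Hox genes summed to 164, 156 and 144 TPM in Pkd1 KO against 199, 194 and 181 TPM in the controls. Of 29 genes tested 0 were called by edgeR, as were 0.00% of all genes (259 genes and 0 Hox genes had an unadjusted p under 0.05; DESeq2 called 3 genes and limma-voom 1, none of them a Hox gene). The median log2 fold change was -0.16 over the 29 genes and -0.01 over all genes.

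Hoxb7 had 55.9, 53.7 and 64.4 CPM in Pkd1 KO and 74.3, 74.1 and 61.8 CPM in the controls. The groups overlapped through Pkd1 KO 3 and control 3 (log2 fold change -0.27, SE 0.18, adjusted p = 1). Hoxd3 was the 1 member with no overlap: 2.31, 1.60 and 1.94 CPM in Pkd1 KO lay below 3.52, 4.21 and 3.70 CPM in the controls, as 6.19% of all genes did (-0.98, SE 0.68, adjusted p = 1). No member lay wholly above, against 4.88% of all genes. Hoxc10 had 1.39, 4.90 and 0.277 CPM in Pkd1 KO against 0.469, 1.01 and 2.17, and Hoxa10 had 3.05, 4.71 and 0 CPM against 0.422, 0.320 and 3.70. In both genes the groups overlapped.

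The difference between the Cep120 KO and Pkd1 KO effects was tested as an interaction. It was called for 0 of 29 Hox genes and for 0.00% of all genes (edgeR), while 7 Hox genes and 3436 genes had an unadjusted p under 0.05. The smallest adjusted p among Hox genes was 0.176. DESeq2 called 3 (Hoxb5, Hoxc4 and Hoxd3) beside 4.28% of all genes, and without library 2 edgeR called 5 beside 18.7% of all genes. The estimates were 1.095 (SE 0.35) for Hoxb4, 2.03 (SE 0.64) for Hoxb5, 2.01 (SE 0.70) for Hoxb6 and 3.10 (SE 0.93) for Hoxd3.

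Genes that act with or upon Hox genes were described from lists fixed for this purpose. Of 9 TALE homeodomain cofactors (the Meis, Pbx and Pknox families), which bind DNA together with Hox proteins, 2 were called higher and 0 lower in libraries labelled Cep120 KO, with a median log2 fold change of 0.76. In the same comparison 8.40% of all genes were higher and 6.26% lower, with a median of 0.12, and the counts of each list below stand beside these shares. Meis3 had 0.235, 0.698 and 0.0614 CPM in the controls and 1.31, 1.07, 1.19, 38.98 and 31.4 CPM in libraries 2, 4, 5, 6 and 7 (5.38, SE 1.61, adjusted p = 0.0418). Pknox1 had 17.2, 23.2 and 21.9 CPM against 29.3, 27.6, 30.6, 33.7 and 40.9, with no overlap (0.65, SE 0.20, adjusted p = 0.0441). The high values of Meis3 stood in the libraries with high group 10 and group 11 genes, while those of Pknox1 were spread over all 5.

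Polycomb proteins keep Hox clusters silent through methylation of histone H3 at lysine 27, and Trithorax proteins oppose them. Of 22 Polycomb genes 5 were higher and 1 lower (median 0.50). Cbx2, which encodes a subunit that reads that mark, had 14.5, 12.3 and 14.4 CPM in the controls and 15.4, 31.4, 29.1, 40.7 and 50.02 CPM in libraries 2, 4, 5, 6 and 7 (1.28, SE 0.29, adjusted p = 0.029). Rbbp4, a histone-binding subunit, was lower (-0.70, SE 0.16, adjusted p = 0.0291). Of 14 Trithorax and demethylase genes 6 were higher and 1 lower (median 1.17). Kmt2a, the H3K4 methyltransferase that maintains Hox expression, had 12.2, 9.53 and 7.86 CPM in the controls and 9.70, 28.6, 31.5, 49.2 and 37.4 CPM in the KO libraries in the same order (1.67, SE 0.41, adjusted p = 0.0305). Hcfc1 and Men1 were higher by 1.81 (SE 0.38, adjusted p = 0.029) and 0.84 (SE 0.20, adjusted p = 0.0296). For Cbx2, Kmt2a and Hcfc1, library 2 lay with the controls or just above them and libraries 4 to 7 lay apart, the same 4 libraries that had TMM factors above 1.15; the part of that difference between libraries in these calls was not tested.

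Retinoic acid genes, whose products set the anterior limits of many Hox genes, gave 0 calls among 14 tested of 17. Rxrb had the smallest p (0.71, SE 0.24, edgeR adjusted p = 0.0611). Libraries 6 and 7 still stood apart in some of these genes, named here after their values were seen. Aldh1a2 had 196 and 213 TPM there and at most 3.775 elsewhere, whereas Dhrs3 had 65.3 and 66.8 TPM there and 257 to 775 elsewhere. Genes that flank the clusters gave 0 calls among 7 tested of 11, with a median of -0.27. The smallest p was that of Skap1, beside HoxB (-0.72, SE 0.30, adjusted p = 0.111), which had 29.4, 25.3, 21.5, 10.6 and 10.0 CPM in libraries 2, 4, 5, 6 and 7 against 32.3, 29.9 and 33.1. In Pkd1 KO against its controls, 0 genes of these 5 lists or of the noncoding genes of the clusters were called.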

How the data were processed

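RNA from GFP-sorted kidney cells was sequenced in 14 libraries of 4 groups, grouped by title and genotype label. Per the labels' protocols cDNA was made with a SMARTer Ultra Low kit, which does not mark strand. The authors deposited estimated counts per gene, not normalized (88.4 to 91.6% of values in a library are whole), together with TPM per gene and per transcript and log2 expression values. Per the submitters' processing notes DRAGEN and the mm9 build were used; settings, annotation and multi-mapping rules were not given in the sources used here. Positions are from GENCODE M21 on GRCm38, matched by Ensembl identifier. Of 55774 lines 287 repeated a gene and were dropped. The counts carry no molecular identifiers, so bounds cover counting error only.

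Counts were rounded, filtered with filterByExpr (minimum count 10, 16876 genes), scaled by TMM and tested with edgeR 4.0.16 (R 4.3.3) in a quasi-likelihood model over all 14 libraries (4 group means, leaving 10 residual degrees of freedom). The call was an adjusted p (Benjamini-Hochberg, over all genes tested) under 0.05. CPM is TMM-scaled and compares libraries; TPM compares genes. The script was tested on simulated data. The alternatives were RLE scaling, no filter, separate fits, DESeq2 1.42.0, limma 3.58.1 (voom with quality weights, and trend on the deposited log2 values), leaving out or summing libraries labelled Cep120 KO, leaving out each library, a replicate block in the Pkd1 line, and TPM minimums of 0.5 and 5. The members and lists were chosen with earlier results of these data known. Full values are given for Hoxb7, the leading gene of each cluster, called members and groups 10 and 11, and for up to 3 called genes of a list or its smallest p (1 such gene is not reported here); Hoxa3, Hoxa6, Hoxb2, Hoxb3, Hoxb9, Hoxc4, Hoxc5, Hoxd1, Hoxd4, Hoxd9 and Hoxd12 were named after their values were seen. The DNA-binding stretch was located in GENCODE transcripts by pattern, and promoter windows came from RefSeq.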

Additional observations from a re-analysis of the deposited data

Results flagged for a closer look

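In the 5 libraries labelled Cep120 KO, 1 of 29 Hox genes had a library far from the others. Hoxb2, an anterior HoxB gene, had 38.5 CPM in library 7 and 5.80 to 10.8 CPM in the other 4 libraries, a gap of 0.849 of the whole range (Dixon's 95% critical value for 5 libraries is 0.71). Library 6, which resembles library 7 in most other Hox genes, had 5.80 CPM. Chance flags about 1 in 20 groups. Of the exonic bases of Hoxb2, 27.3% are shared with the opposite-strand gene Hoxb3os.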

How the results depend on the processing

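The percentage after each count of Hox genes is the share of all genes called. The count of 5 Hox genes higher in the libraries labelled Cep120 KO was 5 with RLE scaling (14.6%, the same 5 genes), 5 with limma-voom (39.5%; Hoxd8 was called and Hoxa9 was not) and 6 with libraries 4 and 5 summed (8.32%). It was 13 without the low-count filter (7.15%), 13 with DESeq2 (24.9%) and 3 with limma-trend (18.9%). It was 10 without libraries 4 and 5 (12.4%), 1 without libraries 6 and 7 (6.41%) and 0 in a separate fit (0%). With library 2 as the only KO library the members' median log2 fold change was -0.165, against -0.0568 over all genes. The cause of these differences was not tested. The separate fit and the fits that left out or summed libraries used fewer libraries than the main fit. Leaving out 1 library gave 0 to 13. The members' median log2 fold change was 1.11 without library 7 and 2.92 without control 1. No setting called a member lower there. For the difference of the KO effects the count was 3 higher with DESeq2 (4.28%), 4 higher and 1 lower with limma-voom (26.0%), and 0 to 5 when 1 library was left out. Both other comparisons gave 0 throughout. Members at a mean of at least 0.5 TPM were 17, and at 5 TPM 6.

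Estimates changed sign as follows. With library 2 as the only KO library Hoxa7 was -1.64, Hoxc10 -2.42, Hoxa10 -0.79, Hoxd10 -1.39, Hoxa11 -6.07, Hoxd11 -2.36 and Hoxd3 -0.165; the spread of that lone library had to be borrowed from the other groups, and as it holds 0 reads of Hoxa11 the value for that gene depends on the prior count and is no bound. With limma-voom Hoxb7 was -0.16, Hoxa10 -0.0375, Hoxd10 -0.0807, Hoxa11 -2.36 and Hoxd11 -1.24. Without libraries 6 and 7 Hoxb7 was -0.0165, Hoxc10 -0.74, Hoxa10 -0.73 and Hoxd10 -0.57. Hoxd8 was -0.70 without libraries 4 and 5 and -0.19 with them summed. Hoxb7 was -0.0124 with RLE scaling and -0.0126 with DESeq2, and -0.11 to 0.10 when 1 library was left out; Hoxd8 was -0.20 to 0.26.

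The Pkd1 groups share 3 replicate numbers. The correlations of deviations were -0.05, -0.03 and -0.12 for equal numbers and -0.09 to 0.12 for unequal ones. These values give no sign of pairing, but deviations from means of 3 libraries cannot exclude a shared litter or batch. With the replicate block 0 of 17 Hox genes tested were called, and Hoxb7 was -0.27 and Hoxd3 -0.98. The groups of the Cep120 line share 1 number, so no block could be fitted there. Depth limits HoxC and groups 11 to 13 most, where most libraries hold few reads.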

Other observations

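Noncoding genes of the clusters gave 0 calls among 7 tested of 15 in the libraries labelled Cep120 KO. Hoxa11os, on the opposite strand from Hoxa11, had 0.881, 2.01 and 0.368 CPM in the controls, 0.0656, 0.107 and 0.369 in libraries 2, 4 and 5, and 105 and 70.7 in libraries 6 and 7 (log2 fold change 4.97, SE 2.02, edgeR adjusted p = 0.102). Hotair, a transcript of the HoxC cluster, had 8 and 6 reads in libraries 6 and 7, 2 in Pkd1 KO 2 and 0 in the other 11. Hottip and Mir10a had no read in any library.

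The estimated TPM of Hoxa10 lay mainly on a noncoding transcript in libraries 6 and 7. Hoxa10-203, annotated as a processed transcript, had 94.7 and 72.8 TPM there, and the coding Hoxa10-201 had 34.9 and 36.3 TPM. This order was not particular to them: at low levels, Cep120-line control 2 had 1.97 TPM of Hoxa10-203 and 0.559 of Hoxa10-201. Hoxb9-202 had 44.5 TPM in library 5, 25.0 in library 4 and 8.46 to 21.5 in the other 12.

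The anterior HoxC genes stood out in 1 control. Apart from Cep120 KO 6 and 7, Hoxc4 had 3.11 CPM in Pkd1-line control 2 and at most 0.176 in the other 11 libraries, and Hoxc5 had 2.88 CPM against at most 0.493. In the same library 5 neural crest and neuron markers summed to 141 TPM, against 11.8 to 29.6 in the other 13, and Tubb3 had 231 CPM against at most 38.7. The part of those markers in the HoxC values was not tested.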
